A study of Saccharomyces cerevisiae with 6 samples.

Results

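Spore formation in budding yeast is carried out by genes that are switched on in the middle and late phases of sporulation, and 38 of these genes were followed here in growing cells that carried a mutant histone. They were taken as a list of gene names for spore formation and spore wall assembly, and all 38 were found, each read by 1 probe set, among the 5449 yeast genes tested. None of the 38 probe set names has the ending Affymetrix uses where several genes can match. The cells were Saccharomyces cerevisiae with histone H2A R78A, an arginine-to-alanine substitution, on 3 arrays, and yeast with wild-type H2A, on 3 arrays. Both groups grew in yeast extract, peptone and dextrose medium at 30 °C and were collected in mid-log phase. The mutated residue is one of the sprocket arginines, which insert into the DNA minor groove on the surface of the nucleosome, and the study asked how gene expression changes without it. Strain background, ploidy, mating type and the way the H2A allele is carried are not stated by the labels, and nothing there says that the replicates came from separate cultures, so that the p-values below describe the spread among these 6 arrays.

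A starved diploid cell that enters meiosis first expresses the regulator Ime1 and the early meiotic genes, and then the transcription factor Ndt80, which turns on the middle genes. In growing cells many middle genes are held off by Sum1, Rfm1 and the deacetylase Hst1, which bind the same promoter element as Ndt80, and late wall genes are held off by other repressors. The products build a new membrane around each meiotic nucleus from a modified outer plaque of the spindle pole body, and then a layered wall of mannoprotein, glucan, chitosan and dityrosine. These proteins are made chiefly in sporulating cells.

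The values were probe set signals on a linear scale, scaled by the authors so that each array had the same trimmed mean, and tests were run on log2 signals with limma's moderated test over all genes. A gene is said below to have risen or fallen where its Benjamini-Hochberg adjusted p was below 0.05. The mutant arrays had a narrower spread of signals, with the 10th percentile of the genes at 121 to 135, against 90.2 to 102 on wild-type arrays, and 37.4% of genes at or under the 25th percentile of mean signal rose, while 2.13% fell. All but 7 of the 38 spore genes had a mean log2 signal at or under that percentile, a signal of 232. The differences of the spore genes are therefore also given after quantile normalization, which gives every array the same distribution of signals. Detection calls were not used here, so how far the dim signals stand above the array's background is not known, and a fold change of a dim gene is only the ratio of its deposited signals. Mutant replicate 1 was the highest of its group for 26 of the 38 genes and mutant replicate 2 the lowest for 25, and wild-type replicate 1 was the highest for 21 and wild-type replicate 2 the lowest for 20. With 3 arrays a group, the number of arrays limits the precision.

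On the deposited scale, most spore genes rose in the mutant in 5 of the 7 roles distinguished below, and after quantile normalization most did in 3 of the 7. Of the 38 genes, 28 rose and 0 fell on the deposited scale, where 17.9% of all 5449 genes rose and 9.18% fell. The median log2 difference, H2A R78A minus wild type, was 0.68, against 0.02 over all genes tested. Values ran from -0.17 for SSP1 to 2.02 for SGA1, and 3 genes rose at least 2-fold (2.59% of all genes did). All 3 mutant arrays lay above all 3 wild-type arrays for 28 of the 38, against 25.7% of all genes, 43.6% of the genes of like signal described below and 49% of the genes at or under the 25th percentile. With single arrays left out 23 to 29 of the 38 rose, where 683 to 1085 of all 5449 genes rose and 194 to 601 fell. With the replicate number as a block 30 of the 38 rose, where 23.7% of all genes rose and 15.7% fell. In a bulk RNA sample, more cells of a type and more RNA per cell cannot be told apart.

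Other dim genes also rose more often than genes at large. The 1223 other genes that were among the 50 nearest in mean signal to any spore gene rose in 32.3% of cases and fell in 3.68%, with a median log2 difference of 0.20. Each was counted once, and 350 of the 1223 had a mean signal above the 25th percentile, against 7 of the 38 spore genes. Averaged over the 38 sets of 50 nearest genes, 35.4% rose. The median of the median differences of these sets was 0.29. Against its own 50 nearest genes, a spore gene lay above their median difference in 33 of 38 cases. After quantile normalization 16 of the 38 rose and 2 fell, where 10.4% of all genes rose and 9.98% fell, where 14% of the genes of like signal rose and 14.7% fell, and where 16% of the genes at or under the 25th percentile rose and 15% fell. All mutant arrays then lay above all wild-type arrays for 21 of the 38, against 16.7% of all genes, 21.3% of the genes of like signal and 23.4% of those at or under the 25th percentile. The median of the 38 was then 0.29, against -0.03 over all genes and -0.06 over the genes of like signal, and 33 of 38 again lay above the median of their nearest genes. The 16 that rose after quantile normalization were all among the 28 that rose on the deposited scale. Without mutant replicate 1, 10 rose and 3 fell on that scale, and 1 fell without mutant replicate 2 or 3 or wild-type replicate 1 or 2. In the plot of differences against signal, the spore genes lie mostly left of the 25th percentile and toward the upper side of the dim genes on both scales.

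**Figure D1:**
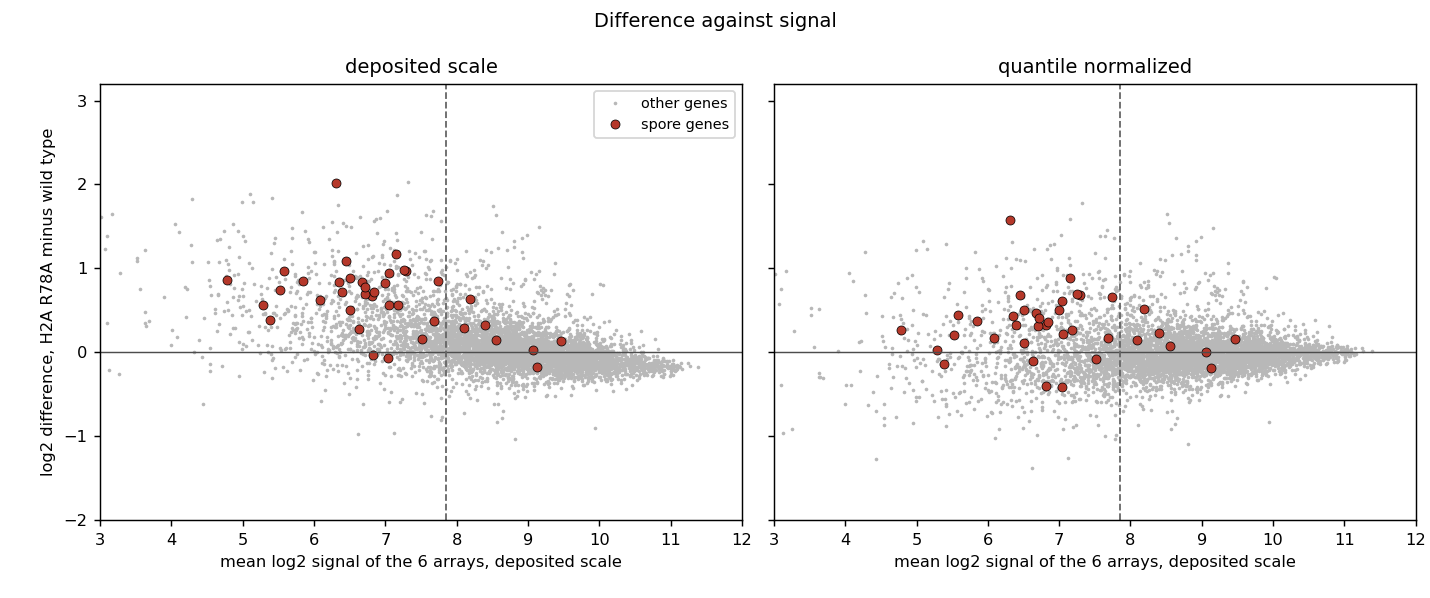
Log2 difference (H2A R78A minus wild type) of each gene on the vertical axis against its mean log2 signal over the 6 arrays on the horizontal axis, on the deposited scale (left) and after quantile normalization (right). Red points are the 38 spore genes and grey points the other genes, the dashed line marks the 25th percentile of these means (7.86), and 16 genes lie outside the axes. Dim genes as a class sit above 0 in the left panel, and the median of the spore genes is 0.68 there and 0.29 in the right panel.

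The first structures to form are the outer plaques of the spindle pole body, from which the new membrane grows. Of the 5 genes of this step 2 rose, and the group's median log2 difference was 0.14. After quantile normalization 0 rose and 2 fell in limma's test, with a median of 0.16. Of the 5, 4 had a mean signal at or under the 25th percentile. Among all genes there, 37.4% rose on the deposited scale, and 16% rose and 15% fell after quantile normalization. MPC54, an outer plaque component, had signals of 167, 155 and 162 on the mutant arrays, against 128, 101 and 99.9 on the wild-type arrays. The groups did not overlap, and the log2 difference of 0.56 (SE 0.12, limma adjusted p = 0.006) was 0.22 after quantile normalization, where it did not pass (limma adjusted p = 0.175). SPO21, whose product Mpc70 is another plaque component, read 164, 98.1 and 177 in the mutant, against 87.8, 77.2 and 104 in wild type. Mutant replicate 2 lay inside the wild-type range for SPO21, and its call (log2 0.67, limma adjusted p = 0.0349) was lost when mutant replicate 1 or 3 or wild-type replicate 1 or 2 was left out (limma adjusted p from 0.0822 to 0.136). After quantile normalization SPO21 had 0.32 and did not pass (limma adjusted p = 0.243).

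The other 3 plaque genes did not pass the test on the deposited scale. SPO74, also a plaque component, had signals of 118, 108 and 109.9 on mutant arrays and 118, 105 and 121 on wild-type arrays. PFS1, needed for membrane formation at selected poles, read 158, 116 and 115 in the mutant and 149.5, 133 and 122 in wild type. The groups overlapped for both genes, with deposited-scale log2 differences of -0.03 and -0.07 (limma adjusted p = 0.858 and 0.761). Both were lower after quantile normalization, with log2 differences of -0.40 for SPO74 and -0.41 for PFS1 (limma adjusted p = 0.0108 and 0.0373). These are the 2 spore genes that fell on that scale. ADY4, the last plaque gene, read 738, 756 and 735 in the mutant, all above 694, 667 and 669 in wild type, yet its log2 difference of 0.14 did not pass (limma adjusted p = 0.103). After quantile normalization ADY4 had 0.16 and did not pass without the replicate block (limma adjusted p = 0.0703), but did with it (0.0484).

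Genes for the prospore membrane, its leading edge and its septins form the largest group, and 8 of 11 rose with a median log2 difference of 0.62. After quantile normalization 4 of the 11 rose and the median was 0.17. SPR3 encodes a sporulation-specific septin, and its signals were 383, 331 and 377 on mutant arrays, against 261, 227 and 215 on wild-type arrays. The groups did not overlap, and SPR3 rose 1.55-fold (log2 0.64, SE 0.10, limma adjusted p = 0.00105), with 0.51 after quantile normalization (limma adjusted p = 0.00364). SPR28, the other sporulation septin, read 120.1, 102 and 103 in the mutant and 75.0, 57.6 and 64.9 in wild type. It rose by 0.72 on the log2 scale (limma adjusted p = 0.00308) and missed the threshold after quantile normalization (0.32, limma adjusted p = 0.0624), where it passed with the replicate block (0.034).

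SPO77 acts with the kinase Sps1 in closing the prospore membrane. Its signals were 128, 125 and 118 on mutant arrays and 64.5, 64.8 and 72.0 on wild-type arrays. It rose 1.85-fold (log2 0.88, limma adjusted p = 3.04e-04) and kept 0.51 after quantile normalization (limma adjusted p = 0.0069). SPO20, the SNARE that fuses vesicles into this membrane, read 138, 129 and 132 in the mutant and 86.9, 79.6 and 80.5 in wild type. It rose 1.62-fold (limma adjusted p = 9.28e-04), and its quantile-normalized difference of 0.31 was near the threshold (limma adjusted p = 0.0421). SMA2, a membrane protein of prospore membrane assembly, gave 146, 148 and 118 in the mutant and 91.0, 66.4 and 73.5 in wild type. Its log2 difference was 0.84 (limma adjusted p = 0.00195), and 0.47 after quantile normalization (limma adjusted p = 0.0291).

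The other 6 genes of the membrane step did not pass after quantile normalization. SPO19, for a GPI-anchored membrane protein, rose by 0.62 on the log2 scale (limma adjusted p = 0.00766), with 0.17 after quantile normalization. SMA1 and SPO75 rose by 0.37 and 0.29 on the log2 scale (limma adjusted p = 0.0395 and 0.0257), with 0.17 and 0.15 after quantile normalization. SMA1 lost its call without mutant replicate 1 or 3 or wild-type replicate 2 or 3 (limma adjusted p from 0.0582 to 0.147), and SPO75 without mutant replicate 1 or 3 or wild-type replicate 1 or 3 (0.0508 to 0.113). The leading-edge genes did not pass: ADY3 had a log2 difference of 0.39, or -0.14 when quantile-normalized, and SSP1 had -0.17 on the deposited scale and -0.18 after quantile normalization. ADY3 passed with the replicate number as a block (limma adjusted p = 0.0374) and without mutant replicate 2 (0.0352). SPO73, a gene for prospore membrane growth, gave 0.15 (limma adjusted p = 0.221), and 0.081 after quantile normalization.

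Of the 4 genes for signalling in spore wall assembly, 2 rose on the deposited scale and 1 after quantile normalization. All 4 had a mean signal at or under the 25th percentile. Among all genes there, 37.4% rose on the deposited scale and 16% after quantile normalization. SPS1 encodes a kinase of the Ste20 family, and its signals were 156, 139.8 and 145 on mutant arrays and 96.4, 76.2 and 97.1 on wild-type arrays. The groups did not overlap, and the 1.64-fold rise (log2 0.72, SE 0.12, limma adjusted p = 0.00199) was 0.36 after quantile normalization (limma adjusted p = 0.0253). SMK1, the MAP kinase of the same process, read 74.8, 80.7 and 76.4 in the mutant and 41.1, 44.5 and 42.7 in wild type. It rose 1.81-fold (log2 0.85, limma adjusted p = 7.58e-04) on signals that stayed below 111, the 10th percentile of all signals, and did not pass after quantile normalization (0.37, limma adjusted p = 0.0753), where it passed with the replicate block (0.0288). SSP2, whose product activates Smk1, had a log2 difference of 0.28 (limma adjusted p = 0.152) that turned to -0.11 after quantile normalization. GIP1, the meiotic targeting subunit of the Glc7 phosphatase, gave 0.15 (limma adjusted p = 0.472) and -0.08 after quantile normalization.

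**Figure D2:**
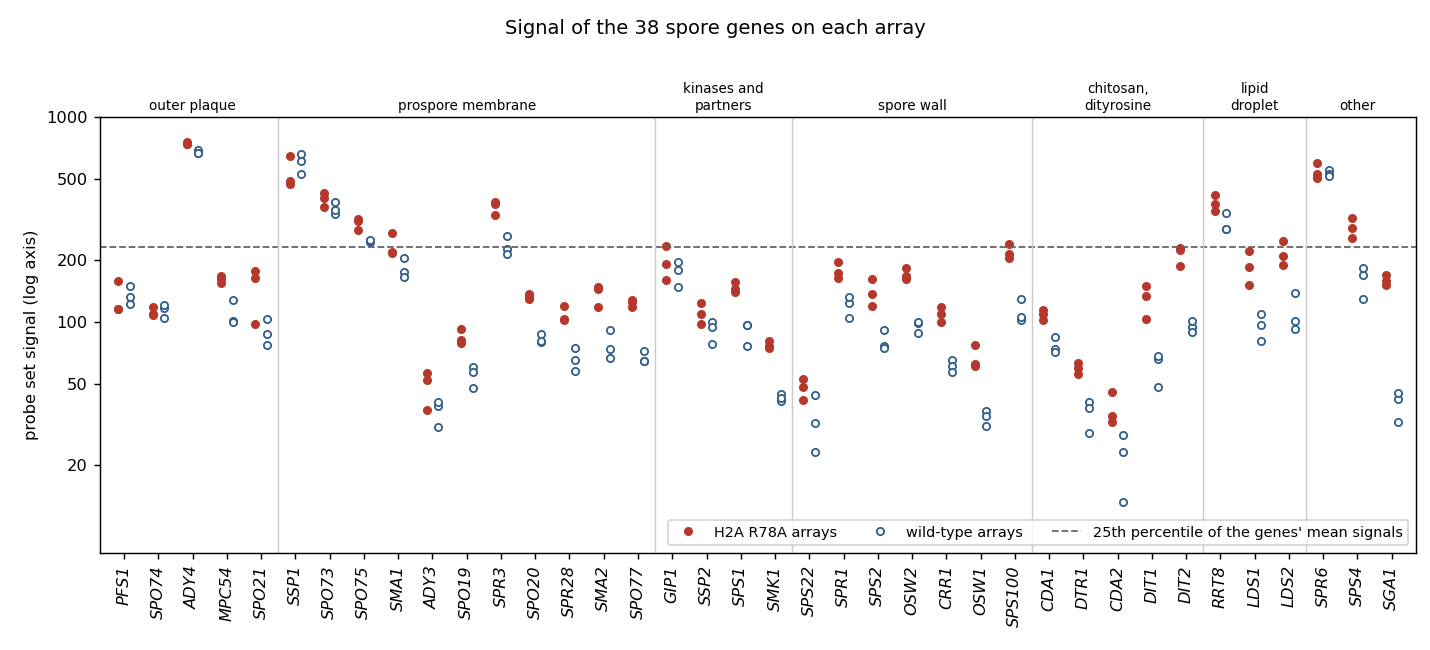
Probe set signal (vertical axis, log scale) of the 38 spore genes on each array, with genes along the horizontal axis grouped by role and, within a role, in order of their log2 difference. Filled red points are the 3 H2A R78A arrays and open blue points the 3 wild-type arrays; the dashed line is the 25th percentile of the genes' mean signals, 232. The red points lie wholly above the blue ones for 28 of the 38 genes.

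Genes for glucan and other wall proteins rose in 6 of 7 cases, with a median log2 difference of 0.83, and in 5 of 7 after quantile normalization, with a median of 0.43. SPS100, for a protein of spore wall maturation, had signals of 239.8, 206 and 213 on mutant arrays, against 129.5, 102 and 106 on wild-type arrays. All mutant arrays were above all wild-type arrays, the rise was 1.96-fold (log2 0.97, SE 0.12, limma adjusted p = 2.29e-04), and 0.69 remained after quantile normalization (limma adjusted p = 8.76e-04). OSW2, a gene of outer wall assembly, read 167, 161 and 182 in the mutant and 88.2, 99.2 and 100.3 in wild type. It rose 1.77-fold (limma adjusted p = 3.37e-04), with a quantile-normalized difference of 0.51 (limma adjusted p = 0.0104). OSW1, also of the outer wall, gave 77.4, 61.2 and 62.5 in the mutant and 36.8, 34.9 and 31.1 in wild type. Its log2 difference of 0.96 (limma adjusted p = 0.00115) was 0.45 after quantile normalization (limma adjusted p = 0.0378), on signals that also stayed below 111 on all 6 arrays.

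CRR1, a putative glycosidase of the spore wall, read 119, 99.7 and 109.6 on mutant arrays and 65.2, 61.2 and 56.8 on wild-type arrays. It rose 1.79-fold (log2 0.84, limma adjusted p = 7.58e-04; 0.43 and 0.0191 after quantile normalization). SPS2, needed with SPS22 for the organization of wall glucan, gave 161, 119 and 138 in the mutant and 91.7, 76.6 and 74.4 in wild type. Its groups did not overlap, with a log2 difference of 0.78 (limma adjusted p = 0.00238) and 0.41 after quantile normalization (limma adjusted p = 0.03). SPS22 had a log2 difference of 0.56 with an SE of 0.22 and did not pass (limma adjusted p = 0.0845), although it did with the replicate block (0.0263) or without wild-type replicate 1 (0.0272). After quantile normalization the difference of SPS22 was 0.022 (limma adjusted p = 0.946). SPR1, a sporulation-specific exoglucanase, rose by 0.57 on the log2 scale (limma adjusted p = 0.00629) and did not pass after quantile normalization (0.26, limma adjusted p = 0.14).

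All 5 genes for the chitosan and dityrosine layers rose on the deposited scale, with a median log2 difference of 0.86, and 2 of them, DIT1 and DIT2, did so after quantile normalization. DIT2 encodes the cytochrome P450 that joins modified tyrosines into dityrosine, and its signals were 231, 188 and 225 on mutant arrays and 95.0, 89.0 and 101 on wild-type arrays. Every mutant array was above every wild-type array, and the rise was 2.25-fold (log2 1.17, SE 0.11, limma adjusted p = 4.87e-05), or 0.88 after quantile normalization (limma adjusted p = 1.60e-04). DIT1, for the enzyme that acts before Dit2, read 151, 103 and 134 in the mutant and 66.3, 47.9 and 68.3 in wild type. It rose 2.12-fold (log2 1.08, limma adjusted p = 0.00141), with 0.68 after quantile normalization (limma adjusted p = 0.00572). With signals under 111 raised to that value, the log2 difference of DIT1 was 0.23 and did not pass (limma adjusted p = 0.218).

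DTR1, the transporter that exports the dityrosine precursor, rose by 0.75 on the log2 scale (limma adjusted p = 0.00756), and the chitin deacetylase genes CDA1 and CDA2, whose products make chitosan, by 0.51 and 0.86 (limma adjusted p = 0.0111 and 0.0368). These 3 did not pass after quantile normalization, where the log2 differences were 0.21, 0.12 and 0.27. CDA2 had low signals on every array, with 45.7, 34.7 and 32.5 in the mutant and 28.0, 13.2 and 23.1 in wild type, and its call was lost without mutant replicate 1 or 3 or wild-type replicate 2 (limma adjusted p from 0.0609 to 0.118).

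The 3 genes for lipid droplet proteins that serve the dityrosine layer all rose on the deposited scale, and 2 of them, LDS1 and LDS2, after quantile normalization. LDS2 had signals of 189, 249 and 209 on mutant arrays, against 138, 92.1 and 101 on wild-type arrays. LDS1 read 222, 151 and 185 in the mutant and 109.5, 80.7 and 97.1 in wild type. Both had groups that did not overlap, with rises of 1.97-fold and 1.93-fold (limma adjusted p = 0.00134 and 0.00148), and after quantile normalization the log2 differences were 0.69 and 0.62 (limma adjusted p = 0.012 and 0.00757). RRT8 rose by 0.33 on the log2 scale (limma adjusted p = 0.0314), a call lost without mutant replicate 1 or 3 or wild-type replicate 1 or 2 (limma adjusted p from 0.0767 to 0.133). After quantile normalization RRT8 had 0.23 and did not pass (limma adjusted p = 0.107), but did with the replicate block (0.0249).

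SGA1 (YIL099W), a glucoamylase that breaks down glycogen during sporulation, had the largest log2 difference of the 38 on both scales. Its signals were 170.3, 158 and 152 on the mutant arrays, against 41.9, 32.6 and 44.9 on the wild-type arrays. The lowest mutant array was far above the highest wild-type array, although both groups lay under the 25th percentile signal of 232. The ratio of the deposited signals was 4.05-fold (log2 2.02, SE 0.14, limma adjusted p = 1.02e-05), with 1.58 after quantile normalization (limma adjusted p = 1.50e-05). All 3 wild-type signals lay below 111, the 10th percentile of all signals. With signals under 111 raised to that value, the log2 difference of SGA1 was 0.52 (limma adjusted p = 0.00324). With 50 added to every signal it was 1.23 (limma adjusted p = 5.00e-06). SPS4, a sporulation-induced gene without an assigned function, read 287, 256 and 323 in the mutant and 169.7, 129.8 and 183 in wild type. It rose 1.81-fold (log2 0.85, limma adjusted p = 0.00122), with 0.66 after quantile normalization (limma adjusted p = 0.00296). SPR6, another sporulation gene of unknown function, gave 526, 597 and 503 in the mutant and 553, 525 and 516 in wild type. Its groups overlapped, and the log2 difference of 0.03 did not pass (limma adjusted p = 0.822), nor did 0.0041 after quantile normalization.

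**Figure D3:**
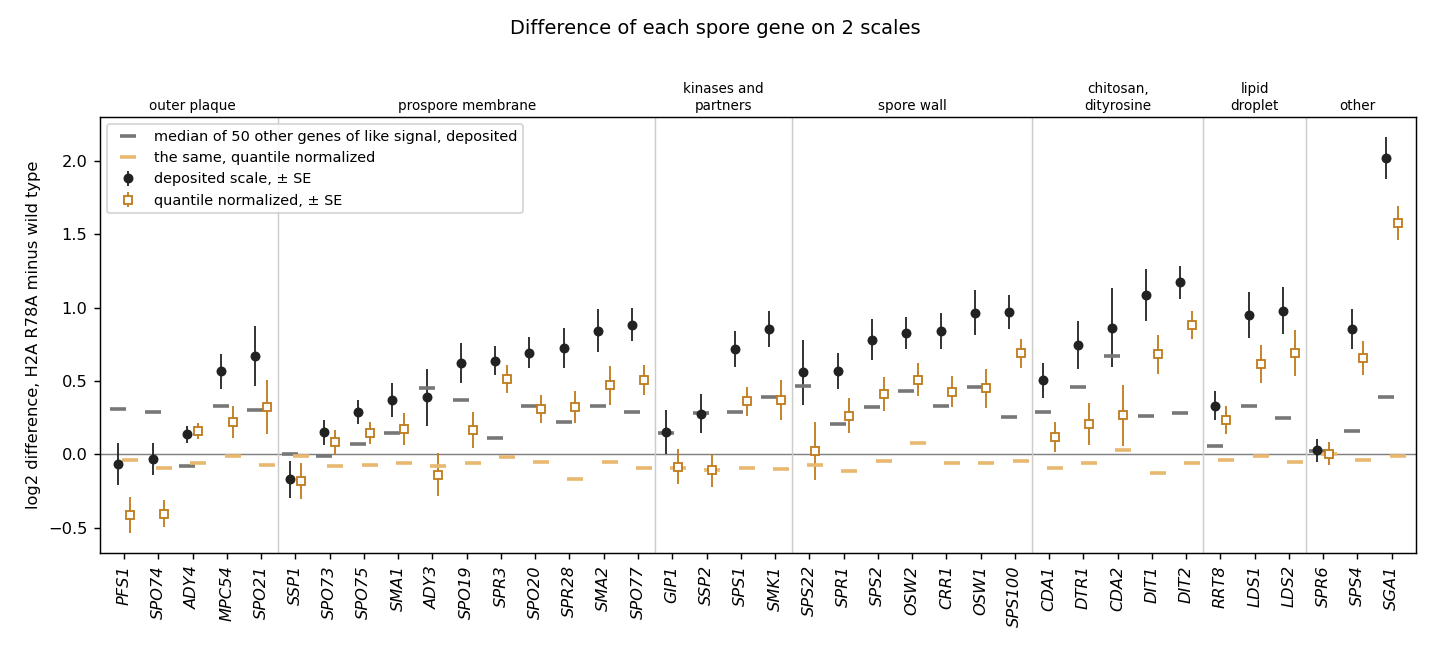
Log2 difference, H2A R78A minus wild type (vertical axis), of each of the 38 spore genes (horizontal axis, grouped by role). Black circles are on the deposited scale and open orange squares after quantile normalization, with bars for ± 1 SE from limma's fit; grey and pale orange dashes mark the median difference of the 50 other genes nearest in signal on each scale. SGA1 stands highest at 2.02 and 1.58, and SPO74 and PFS1 are lowest after quantile normalization at -0.40 and -0.41.

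Several spore genes lie side by side in the genome, by the gene order of the RefSeq table for assembly R64. Adjacent pairs were SPS1 with SPS2, the divergent pair DIT1 and DIT2, LDS2 with RRT8, and SSP1 with PFS1. Both members rose in the first 3 pairs and neither did in the last. CDA1 and CDA2 are separated in that order by 1 gene that is not among the genes tested. Of the 58 other tested genes next to a spore gene, 5 rose and 9 fell on the deposited scale, with a median log2 difference of -0.04. Over all genes 17.9% rose and 9.18% fell on that scale. After quantile normalization 0 of the 58 rose and 10 fell in limma's test, where 10.4% of all genes rose and 9.98% fell. Without mutant replicate 3 the deposited-scale counts were 2 and 3, and without wild-type replicate 1 they were 2 and 4.

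Next to SGA1, the spore gene with the largest difference, lie XBP1 and FMC1. XBP1, a stress-induced repressor gene that diverges from SGA1, rose by 0.50 on the log2 scale, against 2.02 for SGA1, and the convergent neighbour FMC1 gave 0.17 and did not pass. The other 4 neighbours that rose, chosen after their values were seen, differed on the deposited scale about as much as their spore gene or more in 3 cases. GAC1 rose by 0.69 beside MPC54 (0.56), ZTA1 by 0.55 beside GIP1 (0.15), SKS1 by 0.37 beside SMA1 (0.37) and MFB1 by 0.30 beside SPR28 (0.72), all on the log2 scale. The mean log2 signal of GAC1 was 4.65, where a signal of 111 is 6.80. After quantile normalization XBP1, GAC1, ZTA1, SKS1 and MFB1 had log2 differences of 0.29, 0.047, 0.29, 0.19 and 0.15. None of them passed (limma adjusted p from 0.0645 to 0.869). Their spore genes SGA1, MPC54, GIP1, SMA1 and SPR28 had 1.58, 0.22, -0.08, 0.17 and 0.32 there. URH1, at the other side of DIT2, had a log2 difference of -0.06, and RPB7, next to DIT1, -0.26, and neither passed. Of the 58 neighbours, 45 had a mean signal above the 25th percentile. The 13 neighbours under it had a median log2 difference of 0.12, with 3 risen and 0 fallen, against 0.75 for the 31 spore genes under it, of which 25 rose and 0 fell. After quantile normalization these 13 neighbours had a median of -0.12, with 0 risen and 2 fallen in limma's test, against 0.32 for the 31 spore genes, with 15 risen and 2 fallen.

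Other genes of spore formation, not among the 38, were also listed. Of 31 measured, 13 rose and 2 fell, where 17.9% of all genes rose and 9.18% fell, with a median log2 difference of 0.18. After quantile normalization 9 rose and 2 fell, where 10.4% of all genes rose and 9.98% fell. The median was then 0.09 and the largest log2 difference of the list 1.10. Of the 31, 15 had a mean signal at or under the 25th percentile, where 37.4% of genes rose on the deposited scale. SPS19, a peroxisomal reductase gene expressed in sporulation, had a mean signal of 147 ± 11.1 in the mutant and 51.8 ± 5.27 in wild type (SD, n = 3 each), a log2 difference of 1.51 (limma adjusted p = 2.29e-05). RIM4, for an RNA-binding protein that holds back translation of meiotic transcripts, averaged 39.9 ± 5.33 in the mutant and 16.0 ± 4.17 in wild type (log2 1.34, limma adjusted p = 0.0012). Both RIM4 means lay below 111, the 10th percentile of all signals. PES4, another RNA-binding protein gene of sporulation, averaged 201 ± 18.9 in the mutant and 106 ± 16.8 in wild type (log2 0.92, limma adjusted p = 7.10e-04). The 2 that fell were SKT5, which activates the chitin synthase Chs3 (log2 -0.34), and OSW7 (log2 -0.29), and these 2 were chosen for naming after their values were seen.

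Among 27 regulators of meiotic and middle genes, 8 rose and 3 fell, where 17.9% of all genes rose and 9.18% fell, with a median log2 difference of 0.07. After quantile normalization 2 rose and 2 fell, where 10.4% of all genes rose and 9.98% fell. NDT80, the activator of the middle genes, had signals of 145, 127 and 131 on mutant arrays and 96.1, 90.9 and 85.8 on wild-type arrays. Its groups did not overlap, and it rose by 0.56 on the log2 scale (limma adjusted p = 0.00375), with 0.18 after quantile normalization, where it did not pass (limma adjusted p = 0.231). IME1, the regulator that starts the program, read 262, 236 and 245 in the mutant, all below 296, 299.9 and 286 in wild type. Its log2 difference was -0.25 (limma adjusted p = 0.0442), and -0.39 after quantile normalization (limma adjusted p = 0.00474), but the deposited-scale call was lost when any 1 array was left out (limma adjusted p from 0.0612 to 0.131).

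The genes for the Sum1, Rfm1 and Hst1 repressor did not pass the test. SUM1 had signals of 690.3, 618 and 671 on mutant arrays, all below 704, 824 and 739 on wild-type arrays. Its log2 difference of -0.19 did not pass (limma adjusted p = 0.0805). HST1 gave -0.09 and RFM1 0.05, and neither passed (limma adjusted p = 0.231 and 0.807). The 3 largest differences among regulators that passed were those of HOS2 (0.70), a deacetylase of the Set3 complex that represses middle genes, NDT80, and the starvation kinase gene RIM15 (0.55). HOS2 did not pass without wild-type replicate 2 (limma adjusted p = 0.0548), and HOS2 and RIM15 did not pass after quantile normalization (limma adjusted p = 0.125 and 0.357). Of the 3 regulators that fell, IME1, RPD3 and CDC5, 0 fell without mutant replicate 1, mutant replicate 3 or wild-type replicate 1, and 1 or 2 did without each of the others.

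Relatives of the spore genes that serve growing cells, such as the mitotic septins and the exoglucanase EXG1, were also listed. Of 19, 2 rose and 3 fell, where 17.9% of all genes rose and 9.18% fell, with a median log2 difference of -0.07. The 2 risen were GAS5 (0.47, limma adjusted p = 0.00146), a glucanosyltransferase gene, and PST1 (0.27, limma adjusted p = 0.0293), a wall protein gene related to SPS2. The kinase gene SLT2 fell (log2 -0.36, limma adjusted p = 0.0301), with UTR2 and STE20, and 0 of the 3 fell after quantile normalization or without wild-type replicate 2, and 1 did without mutant replicate 1 or 3 or wild-type replicate 1. PST1 did not pass without mutant replicate 1 or 3 or wild-type replicate 1 or 3 (limma adjusted p from 0.0568 to 0.112). The mitotic septin genes CDC3, CDC10, CDC11, CDC12 and SHS1 had log2 differences from -0.15 to 0.0033 and did not pass, against 0.64 and 0.72 for the sporulation septin genes SPR3 and SPR28. After quantile normalization the mitotic septin genes had -0.098 to 0.0029, against 0.51 for SPR3 and 0.32 for SPR28, which did not pass. All 19 relatives had mean signals above the 25th percentile, and SPR28 did not.

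Markers of other cell states moved as well. Over all genes 17.9% rose and 9.18% fell, and after quantile normalization 10.4% rose and 9.98% fell. All 13 markers of starved or stressed cells rose on the deposited scale, and 11 of the 13 did after quantile normalization. Their median log2 difference was 0.81, and 0.75 after quantile normalization. Their summed signal was 6073 to 6901 on mutant arrays, against 3571 to 3723 on wild-type arrays. Of 14 meiosis markers 7 rose and 1, IME1, fell, with a median of 0.41. After quantile normalization 3 rose and 1 fell, with a median of 0.19. Of the 14, 8 had a mean signal at or under the 25th percentile. Among all genes there, 37.4% rose and 2.13% fell on the deposited scale, and 16% rose and 15% fell after quantile normalization. Leaving out any 1 array left 0 meiosis markers fallen in limma's test. They had summed signals of 2845 to 3786 in the mutant and 2549 to 2956 in wild type, which overlap. Of 4 markers of alpha cells 3 rose, and 2 did after quantile normalization, and their summed signal was 615 to 660 in the mutant, against 452 to 473 in wild type. MF(ALPHA)1, the alpha-factor gene, read 72.1, 70.3 and 56.4 in the mutant and 20.6, 19.4 and 17.2 in wild type (log2 1.80, limma adjusted p = 3.50e-05). All these signals lay below 111, the low-signal level given above. After quantile normalization the log2 difference of MF(ALPHA)1 was 1.24 (limma adjusted p = 4.97e-04). Of the 4 alpha-cell markers, 3 had a mean signal at or under the 25th percentile. Of 6 markers of a cells 0 rose and 4 fell on both scales, with summed signals of 5405 to 5578 in the mutant and 6140 to 6746 in wild type.

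Of 8 genes expressed in haploid cells of either type, 1 rose and 3 fell on both scales, with summed signals of 4321 to 4447 in the mutant and 4615 to 4981 in wild type. The risen gene was RME1, a repressor of IME1 in haploid cells, with 514, 595 and 571 on mutant arrays and 369, 432 and 444 on wild-type arrays (log2 0.43, limma adjusted p = 0.00513). The 3 fallen genes were FUS1, GPA1 and HO (log2 -0.54, -0.41 and -0.31). No gene of these 5 lists was under a signal of 10 on all arrays, but 10 lies far below 111, the 10th percentile of all signals. Passing it does not show that a gene stood above the array's background. The part of these markers in the differences of the spore genes was not tested.

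**Figure D4:**
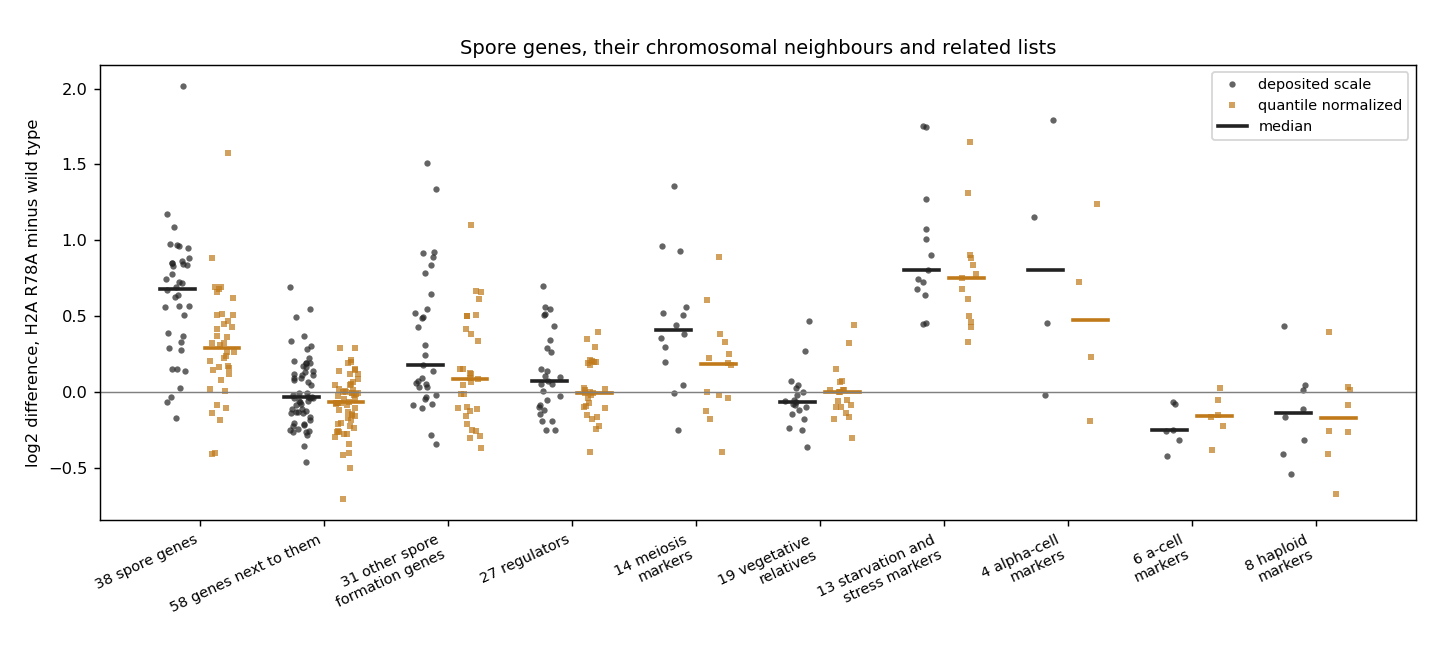
Log2 difference, H2A R78A minus wild type (vertical axis), for the 38 spore genes, the 58 tested genes next to them and the related gene lists (horizontal axis). Each point is a gene, black circles on the deposited scale and orange squares after quantile normalization, and bars are medians. The median of the spore genes is 0.68 and 0.29 on the 2 scales, that of their neighbours -0.04 and -0.07, and that of the starvation and stress markers 0.81 and 0.75.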

How the data were processed

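RNA was read on one-colour Affymetrix arrays, 3 with H2A R78A and 3 with wild-type H2A. The deposited values are probe set signal intensities, per the file headers 1 column per sample; the submitters' processing notes name MAS5 and limma, without versions or roles. The intensities deposited by the authors average 500 on each array once the outer 2% of values at either end are trimmed, and no detection calls or scanner files were used here. Of 5900 probe sets, 5498 paired with 1 gene and 402 with none. The brightest probe set on average stood for each of 47 genes that had more than 1. This gave 5449 genes, and 12 symbols were updated to those of the RefSeq table.

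Log2 signals went into limma 3.58.1 under R 4.3.3 (lmFit, then eBayes with intensity trend, two-sided), adjusted over all genes at a threshold of 0.05. Quantile normalization and cyclic loess ran on all 5900 probe sets. Other alternatives were median centring, a filter on dim genes, raised low values, an added constant of 50, other probe set rules, variance models, array weights, thresholds of 0.01 and 0.10, a replicate block and leaving out each array; quantile normalization with an array left out was added after the data were seen. Residuals of arrays with the same replicate number correlated across genes at r = 0.206, 0.383 and 0.427. Arrays with different numbers gave r from -0.449 to 0.154, the highest for mutant replicate 1 with wild-type replicate 3. Only the replicate block took the numbers to pair the arrays, and the main fit used no block. On simulated arrays with 5449 genes limma recovered 26% of differences of 0.25, 88% of 0.5 and 98% of 1, and 12 of 161 calls were false (7.45%). The changed genes had all signal levels, the noise was independent between arrays, and dim genes were not shifted as a class. These rates therefore need not hold for the spore genes, which are mostly dim.

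Spore genes given with all arrays are those past the threshold at 1 or more on the log2 scale, past it after quantile normalization, or lower on either scale; others shown so were chosen after their values were seen. List genes named are the 3 largest that passed, with others chosen after their values were seen. The spore genes and all lists were chosen with earlier results of these data known. The promoter motifs planned were not searched, since no sequences were used here. OSW4 was not measured.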

Additional observations from a re-analysis of the deposited data

How the results depend on the processing

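The count of 28 risen spore genes and the median of 0.68 depended on the treatment of dim signals. Quantile normalization gave 16 risen, 2 fallen and a median of 0.29, and cyclic loess 17, 1 and 0.33. Raised low values gave 15 risen and a median of 0.19. Of the 38, 7 lay under the floor of 111 on all arrays and so had no difference left there. On all wild-type arrays 22 of the 38 lay under it. With raised low values 14 genes lost their call: SPS2, DIT1, CDA1, CDA2, SPR28, SMK1, SPO19, SPO21, OSW1, RRT8, DTR1, CRR1, SMA1 and SMA2. ADY4 passed there. The filter on dim genes left 9 of the 38, of which 5 rose, with a median of 0.29, and an added constant of 50 gave a median of 0.44. The replicate block gave 30 risen on the deposited scale, adding SPS22 and ADY3, and changed no other call of a spore gene there; after quantile normalization it gave 20 risen, adding SMK1, SPR28, RRT8 and ADY4, with 2 fallen and a median of 0.29. Leaving out single arrays gave 23 to 29 risen, 0 fallen and medians of 0.61 to 0.75, where 683 to 1085 of all 5449 genes rose. After quantile normalization it gave 10 to 15 risen, 1 to 3 fallen and medians of 0.28 to 0.31. There 10 rose without mutant replicate 1, 12 without wild-type replicate 1 and 15 without mutant replicate 2. Without mutant replicate 3 or wild-type replicate 2 or 3, 11 rose. Over all genes 17.9% rose on the deposited scale, 23.7% with the replicate block and 10.4% after quantile normalization. Shares of all genes are not given for cyclic loess, raised low values, the dim filter, the added constant or the block or left-out arrays after quantile normalization. Counts under those settings therefore stand without a comparison. These 11 genes, SPS1, SPS4, SPS100, DIT2, SPR3, SGA1, SPO20, SPO77, OSW2, LDS1 and LDS2, stayed risen under every alternative set at the start that kept the 0.05 threshold and tested them. Some genes that did not pass on the deposited scale changed sign: SSP2, ADY3 and GIP1 had -0.11, -0.14 and -0.084 after quantile normalization, with or without the block, and -0.060, -0.12 and -0.052 with cyclic loess; SPR6 had -0.032 with median centring, -0.050 with array weights and -0.045 to 0.079 with single arrays left out; and the ranges with single arrays left out were -0.22 to 0.012 for PFS1 and -0.092 to 0.011 for SPO74. The cause of these changes was not tested.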
